A study of Pelodiscus sinensis with 18 samples.

Results

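Transcript levels in turtles (Pelodiscus sinensis, the Chinese soft-shelled turtle) exposed to niclosamide at 50 µg per L (nic50) were set against those in unexposed controls, in liver and in gut, and the responses of the tissues were compared with each other. The 4 groups were nic50 liver, control liver, nic50 gut and control gut, with 3 libraries each. These are 12 of the 18 libraries of the series; the other 6 are liver and gut at 10 µg per L (nic10). All animals carry the wild-type label WT, and neither age nor sex nor the length of exposure is stated. The measured quantity is FPKM, the sequenced fragments of a transcript relative to its length and to all mapped fragments, and all changes are differences of log2(FPKM + 1), which understates the change of low genes. The rule took the liver change (nic50 minus control) minus the gut change, here called the interaction, for each of 13475 tested genes of 24880 in the table. A positive interaction means that the liver stood higher, relative to its own controls, than the gut did.

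Niclosamide is a drug against tapeworms that is also used to kill snails, and it is known to uncouple mitochondrial respiration from ATP synthesis. The liver takes up what the gut absorbs and makes most plasma proteins, including the clotting factors. The gut wall holds absorptive epithelium, hormone-secreting cells, smooth muscle, nerves and immune cells. The liver's stellate cells store vitamin A and turn into matrix-forming cells after injury, and fibroblasts hold a like place in the gut wall. Prostaglandins, lipid signals of inflammation and of gut lining repair, are made in both tissues. In bulk tissue, fewer cells of a type and less RNA per cell cannot be told apart.

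The tissues held the transcripts their labels imply. The 19 hepatocyte markers summed to 79938 to 85960 FPKM in nic50 livers and 70814 to 85927 in control livers, against 89.7 to 145 in nic50 guts and 124 to 160 in control guts. The 19 markers of absorptive enterocytes summed to 4779, 12845 and 2721 FPKM in nic50 guts and 4612, 4414 and 4024 in control guts, and did not exceed 258 in any of the 6 livers. The 13 smooth muscle markers reached 1479, 928 and 3743 FPKM in nic50 guts against 1025, 1086 and 1607 in control guts. Nic50 guts thus differed among themselves in epithelium and muscle more than control guts did. The nic50 livers were alike, with correlations across genes of 0.992 to 0.994 and a median within-group SD of 0.13 on the log2 scale, against 0.24 in control livers, 0.24 in nic50 guts and 0.22 in control guts. A set of 22 genes, with summed FPKM of 249 to 415, was present in control livers 2 and 3, nic50 gut 3 and control guts 1 and 2. It summed to at most 4.81 in the other libraries of the series. In the interaction test 0 of the 22 passed. The set was picked by its presence in these libraries and splits control livers, nic50 guts and control guts within themselves. That widens the spread of its genes, so the count of 0 says little about them. It is not stated that each library is a different turtle, and p-values measure only the spread between libraries, which may be technical.

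The 2 tissues differed in their response in 133 of 13475 genes, 0.987% of those tested (limma, Benjamini-Hochberg adjusted p under 0.05), and in most of them the liver stood higher than the gut. The interaction was positive in 113 genes (0.839%) and negative in 20 (0.148%), and 1676 genes had an unadjusted p under 0.05. Those with the highest interaction among genes with a symbol included MGP, an inhibitor of calcification, RARRES1, a gene induced by retinoids, SRGN, the proteoglycan of secretory granules, EDNRA, an endothelin receptor, and CISH, an inhibitor of cytokine signalling. The lowest included the galectins LGALS4 and LGALS3, the prostaglandin D synthase HPGDS and the receptor kinase RET. Genes were named as highest or lowest only if exposed and control libraries lay apart in at least 1 tissue. Such separation in 1 tissue, given for these genes below, is therefore no separate support. In the same fit 563 genes (4.18%) changed in liver, 431 higher (3.2%) and 132 lower (0.98%), and 41 (0.304%) changed in gut, 9 higher (0.0668%) and 32 lower (0.237%).

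Most of the 133 rested on the liver. In 107 the liver change alone passed the test, with 89 genes that rose and 18 that fell, and in 14 the gut change alone passed, with 13 genes that fell and 1, TBATA, that rose. PTGS2 passed in both tissues, and in 11 genes neither single change passed. The liver change was the larger in size in 112 of the 133. The changes had opposite signs in 106, of which 94 were above 0 in liver and below 0 in gut. Selection by the liver change minus the gut change favours opposite signs. Counts of direction among the 133 thus do not show how common opposite responses were. In 49 genes all 3 nic50 livers lay above all control livers while all 3 nic50 guts lay below all control guts, and in 1, the helicase gene RTEL1, both relations were turned round. Over all genes tested, the liver groups lay apart in 32.5% (24.5% higher and 7.96% lower at nic50), the gut groups in 11.8% (4.22% higher and 7.57% lower), and groups lay apart in both tissues in opposite directions in 265 genes (1.97%) and in the same direction in 334 (2.48%). Genes with a mean FPKM of at least 1 in each tissue gave 76 of the calls among 9714 tested (0.782%; 68 higher, 0.7%, and 8 lower, 0.0824%). The others gave 57 among 3761 (1.52%; 45 higher, 1.2%, and 12 lower, 0.319%), and there the interaction mostly repeats the change in the tissue that has the transcript.

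Across all tested genes the liver and gut changes correlated at Pearson's r = 0.19, where the points are 13475 genes of the same 12 libraries and not replicates. The median change was 0.10 in liver, -0.02 in gut and 0.13 for the interaction, so list medians below are set beside these. Rescaling by trimmed means over all libraries brought the median interaction to 0.00, a shift of about the 0.13 seen without it, and gave 112 calls, 82 higher and 30 lower. After quantile normalization there were 97 calls, 68 higher and 29 lower. The count also depended on libraries: it was 79 without control liver 3, 74, 66 and 36 without nic50 livers 1, 2 and 3, and 70 and 80 without control guts 1 and 2. Without control liver 1, 151 genes passed, 110 higher and 41 lower, and 95 of the 133 were among them. The median interaction was then 0.05. Control liver 1 correlated with control livers 2 and 3 at 0.967 and 0.964, and those with each other at 0.993. With the alike livers averaged (nic50 livers into 1 value, control livers 2 and 3 into 1) 5 genes passed, DIO2, FGG, PDYN, PTGS2 and LOC102443578, and all 133 kept their sign.

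**Figure D1:**
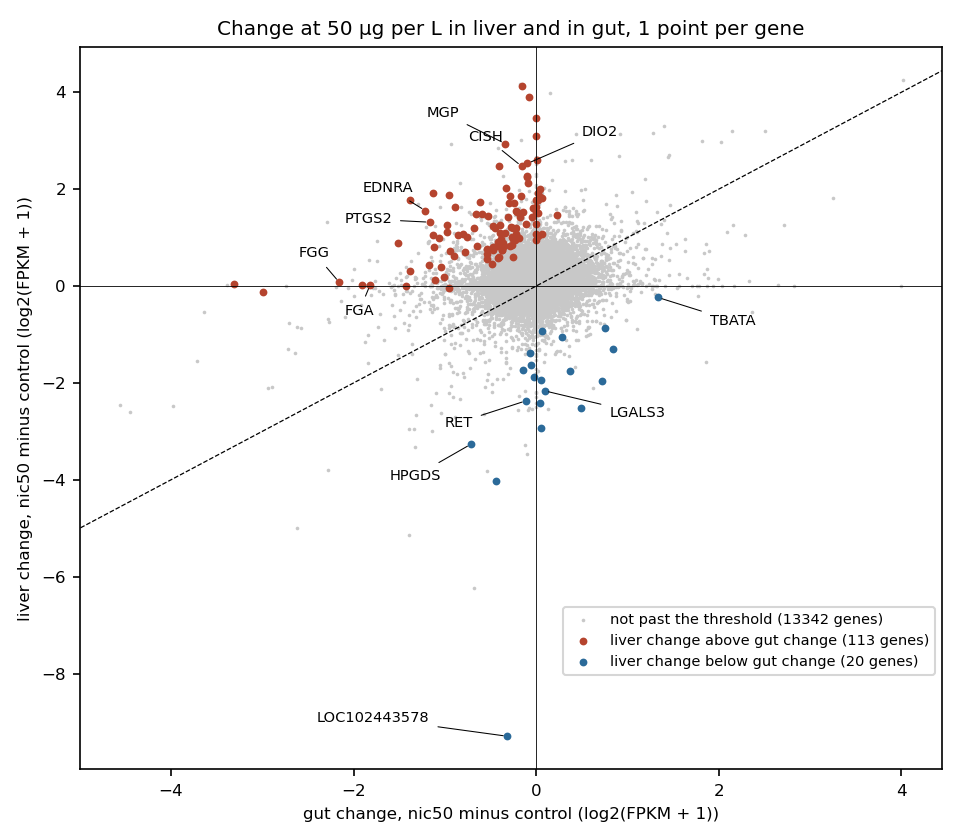
Gut change (x axis) against liver change (y axis), both nic50 minus control in log2(FPKM + 1), for 13475 tested genes; the dashed line marks equal change in both tissues. The 113 genes in red lie above that line and the 20 in blue below it, and most of the red points are above 0 on the liver axis and below 0 on the gut axis.

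In the list of prostaglandin metabolism 3 of 15 tested genes differed between the tissues. The interaction was positive for PTGS2 and HPGD (0.839% of all genes) and negative for HPGDS (0.148% of all genes). This list and those below were chosen with earlier results of these data known, the liver change of HPGDS among them. The shares over all genes are therefore set beside list counts as a description only. The median interaction of the 15 was 0.83, against 0.13 over all genes, with a median liver change of 0.47 and a median gut change of -0.30. All 3 called genes are enzymes, which make, convert or break down prostaglandins.

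PTGS2, the inducible cyclooxygenase that starts prostaglandin synthesis, had 2.77, 3.29 and 6.03 FPKM in the nic50 livers against 0.977, 0.806 and 1.06 in control livers. In gut it had 2.11, 2.16 and 1.47 FPKM at nic50 against 6.12, 4.36 and 6.15 in controls. Exposed and control libraries did not overlap in either tissue, and the order was opposite. PTGS2 rose by 1.32 in liver (adjusted p = 0.00415) and fell by 1.16 in gut (adjusted p = 0.0451), for an interaction of 2.48 (SE 0.33, adjusted p = 0.00161). Control guts held more PTGS2 than control livers, and at nic50 the livers held more than the guts. The call held in all 12 fits that left out 1 library of the 4 groups.

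HPGDS, which makes prostaglandin D2 and marks mast cells and some lymphoid cells in mammals, had 0.659, 0.368 and 0.42 FPKM in the nic50 livers against 18.3, 8.44 and 14.6 in control livers. In gut the values were 28.6, 21.3 and 19.6 FPKM at nic50 and 39.2, 44.8 and 31.5 in controls. Both tissues were lower at nic50 without overlap. HPGDS fell by 3.26 in liver (adjusted p = 4.55e-05), the gut change was -0.71 (adjusted p = 0.632), and the interaction was -2.55 (SE 0.46, adjusted p = 0.0131). It was the only called gene whose groups lay apart in the same direction in both tissues. Selection by the interaction works against such genes.

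HPGD, which inactivates prostaglandins by oxidation, had 224, 246 and 242 FPKM in the nic50 livers against 87.2, 81.5 and 92.6 in control livers. The guts stood at 51.9, 41.4 and 38.5 FPKM at nic50 and 47.1, 46.9 and 54.7 in controls. The liver groups were far apart and the gut groups overlapped, with an interaction of 1.61 (SE 0.27, adjusted p = 0.00824). HPGD did not pass after quantile normalization (interaction 1.39, adjusted p = 0.0768). Among members that did not pass, PTGES, an inducible prostaglandin E synthase, had 0.278, 0.9 and 0.619 FPKM in nic50 guts against 1.82, 2.05 and 2.19 in control guts and overlapping levels in liver (interaction 0.83, adjusted p = 0.321). LTA4H, which makes leukotriene B4, fell by 1.18 in liver (adjusted p = 0.0266) with a gut change of -0.89 (adjusted p = 0.311), so its interaction was -0.30 (adjusted p = 0.838).

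**Figure D2:**
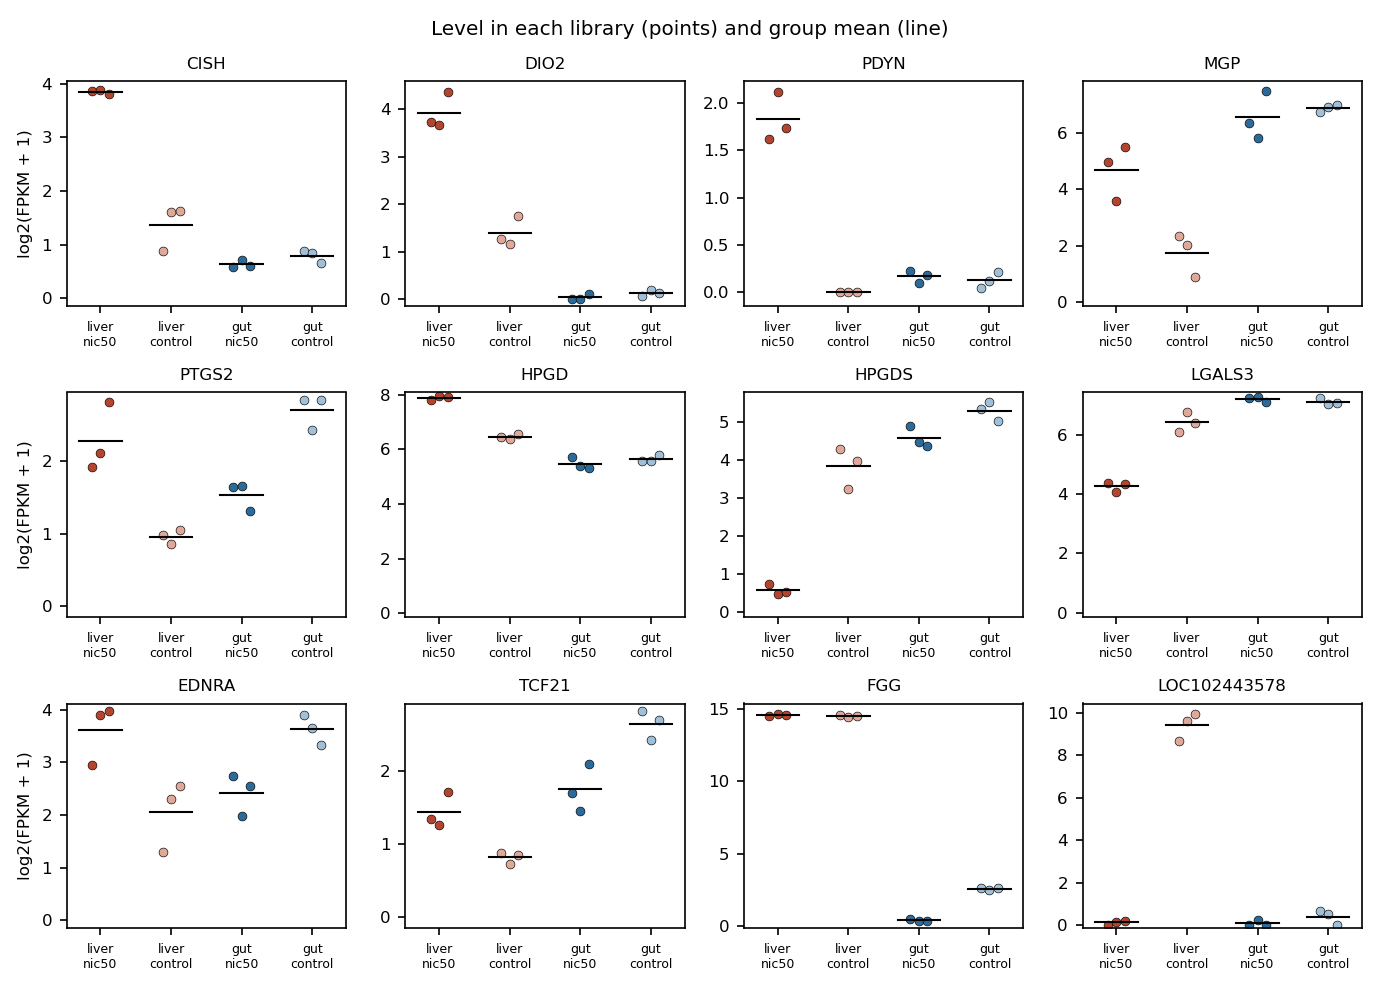
Level of 12 genes in each library as log2(FPKM + 1) (points) with the group mean (line), for nic50 liver, control liver, nic50 gut and control gut from left to right in each panel; the y axes differ between panels. PTGS2, EDNRA and TCF21 stand higher at nic50 in liver and lower at nic50 in gut, CISH, DIO2, PDYN, HPGD, HPGDS, LGALS3 and LOC102443578 differ mainly in liver, and FGG differs in gut only among its plotted groups.

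Some markers of stellate cells and fibroblasts rose in nic50 livers, and a few fell in nic50 guts. Of 15 tested markers 4 had a positive interaction past the threshold, TCF21, RELN, DPT and PDGFRA, against 0.839% of all genes, and 0 a negative one. All 15 lay above the median of all genes, with a median interaction of 1.33, a median liver change of 1.02 and a median gut change of -0.28. In liver 6 of the 15 rose (3.2% of all genes) and 0 fell, and in gut 2 fell (0.237% of all genes) and 0 rose. This list was chosen with its liver change known from earlier results of these data. The summed FPKM of the 16 listed markers was 56.3, 73.7 and 87.1 in nic50 livers against 20.8, 29.3 and 28.0 in control livers, and 47.4, 24.1 and 76.9 in nic50 guts against 54.0, 55.9 and 67.0 in control guts. The sums did not overlap in liver and overlapped in gut, where nic50 gut 3 was the highest of the 6.

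TCF21, a transcription factor of fibroblast and stellate precursors, had 1.54, 1.4 and 2.27 FPKM in the nic50 livers against 0.837, 0.659 and 0.796 in control livers. In gut it had 2.25, 1.73 and 3.28 FPKM at nic50 against 6.04, 4.36 and 5.47 in controls. The groups lay apart in opposite directions, with an interaction of 1.52 (SE 0.25, adjusted p = 0.00821), and the gut fall of 0.90 passed by itself (adjusted p = 0.0451) while the liver change of 0.62 did not (adjusted p = 0.0634). RELN, an extracellular glycoprotein of liver stellate cells, had 3.82, 6.0 and 6.16 FPKM in the nic50 livers against 1.84, 1.68 and 1.51 in control livers. It stayed under 0.5 FPKM in all guts compared, and its interaction was 1.5 (SE 0.27, adjusted p = 0.0131), carried by the liver rise of 1.22.

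DPT, a matrix protein of fibroblasts, showed the other pattern. It had 1.02, 0.654 and 1.14 FPKM in nic50 guts against 3.09, 3.14 and 3.21 in control guts, and at most 0.461 FPKM in any of the 6 livers. Its gut fall of 1.11 passed (adjusted p = 0.0147) and the interaction was 1.23 (SE 0.26, adjusted p = 0.0307). PDGFRA, the platelet-derived growth factor receptor of fibroblasts, had 1.56, 1.77 and 2.71 FPKM in the nic50 livers against 0.372, 0.618 and 0.8 in control livers, and 1.28, 0.712 and 1.23 in nic50 guts against 1.74, 1.56 and 1.96 in control guts. Both pairs of groups lay apart, and the interaction was 1.33 (SE 0.28, adjusted p = 0.035). TCF21 passed in 12 of 12 fits without 1 library, RELN in 11, DPT in 4 and PDGFRA in 2.

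Other markers of the list had interactions of like size that did not pass. COL3A1 (LOC102447978), a fibrillar collagen, rose by 1.41 in liver (adjusted p = 0.0167) with a gut change of -0.15 (interaction 1.55, adjusted p = 0.109). NGFR, a neurotrophin receptor of stellate cells, rose by 1.33 in liver (adjusted p = 0.021; interaction 1.53, adjusted p = 0.109). LUM, COLEC11, RELN and PDGFRA were the other 4 that rose in liver. DCN, a collagen-binding proteoglycan, had a liver change of 1.26 (adjusted p = 0.0654) and an interaction of 1.69 (adjusted p = 0.153). In the list of extracellular matrix genes 1 of 37 passed the interaction test, MGP, against 0.839% of all genes called higher, and the median interaction was 0.57. In liver 7 of the 37 rose (3.2% of all genes) and 0 fell. There 20 lay apart higher and 1 lower, against 24.5% and 7.96% of all genes. The median change of the list was 0.48 in liver and 0.04 in gut.

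**Figure D3:**
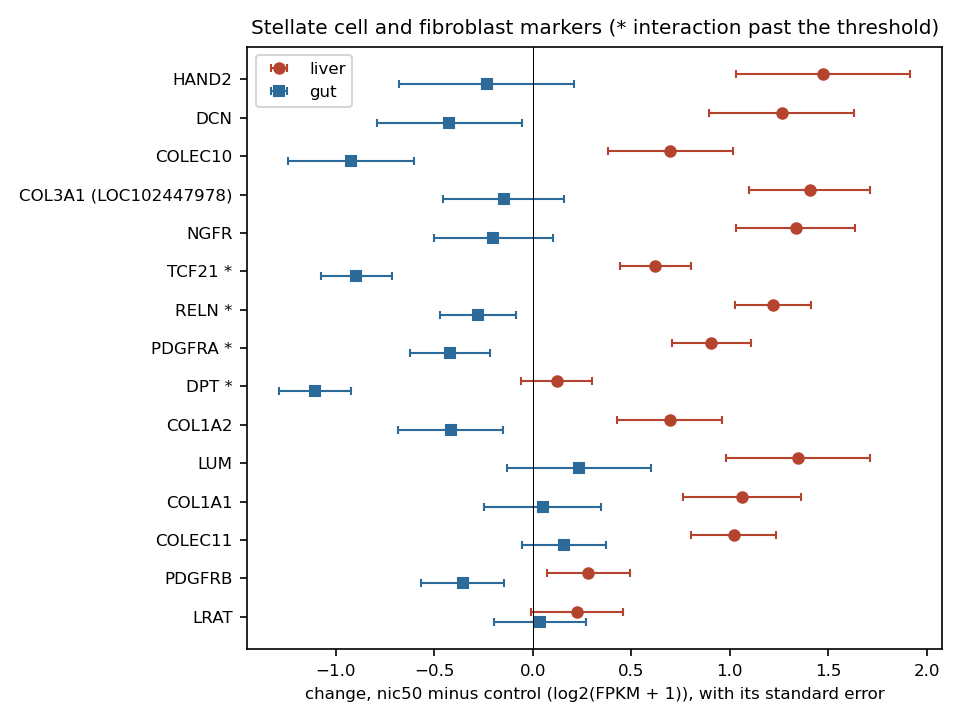
Change of the 15 tested stellate cell and fibroblast markers in liver (red circles) and gut (blue squares), nic50 minus control in log2(FPKM + 1), with standard errors from the fit (3 libraries a group), ordered by interaction. All 15 liver changes are above 0, and the gut changes run from -1.11 for DPT to 0.24 for LUM.

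MGP had 30.1, 11.1 and 44.8 FPKM in the nic50 livers against 4.11, 3.05 and 0.837 in control livers, and 80.1, 55.4 and 179 in nic50 guts against 107, 121 and 126 in control guts. The liver groups did not overlap and the gut groups did. Its interaction of 3.28 (SE 0.69, adjusted p = 0.031) was the highest of a gene with a symbol, but MGP passed in 3 of 12 fits without 1 library and not after rescaling by trimmed means or quantiles.

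EDNRA, the endothelin receptor of stellate and smooth muscle cells, had 6.73, 14 and 14.8 FPKM in the nic50 livers against 1.46, 3.95 and 4.89 in control livers. In gut it had 5.64, 2.95 and 4.83 FPKM at nic50 against 13.9, 11.6 and 9.1 in controls. The order of exposed and control was opposite in the tissues without overlap, with an interaction of 2.77 (SE 0.47, adjusted p = 0.00824) that passed in 12 of 12 fits. CTHRC1, a secreted collagen modifier of activated fibroblasts, also lay apart in opposite directions, with 2.31, 3.71 and 2.57 FPKM in the nic50 livers against 0.478, 0.405 and 0.189 in control livers, and 0.692, 0.514 and 0.324 in nic50 guts against 1.16, 0.968 and 2.15 in control guts (interaction 2.16, SE 0.30, adjusted p = 0.00238). RBMS3, an RNA-binding protein of stellate cells, showed the same arrangement (interaction 1.66, SE 0.25, adjusted p = 0.00402), as did TM9SF2, an endosomal membrane protein (1.71, adjusted p = 0.00577), and ATP1B4 (2.08, adjusted p = 0.00178). CTHRC1, RBMS3, TM9SF2 and ATP1B4 were named by the rule because they moved in opposite directions in the tissues. Their arrangement was thus largely fixed by that choice and does not show how common it was.

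Several secreted growth and matrix factors were among the 133; of those named next, BMP6 and EFEMP1 came from the rule for named genes and the others were chosen after their values were seen. BMP4, a morphogen, had 6.91, 10.8 and 7.47 FPKM in the nic50 livers against 3.52, 3.02 and 3.63 in control livers, and 7.3, 4.97 and 8.34 in nic50 guts against 15.6, 12.9 and 9.55 in control guts (interaction 1.87, adjusted p = 0.0233). TWSG1, which binds bone morphogenetic proteins outside the cell, had an interaction of 1.49 (adjusted p = 0.0218), and BMP6, which signals iron status to hepatocytes in mammals, one of 1.24 (adjusted p = 0.0233). WNT2B and WNT4, ligands of the Wnt pathway, had interactions of 2.10 (adjusted p = 0.0233) and 1.998 (adjusted p = 0.031). The protease genes HTRA1 (2.06, adjusted p = 0.0233) and PLAU (1.94, adjusted p = 0.0218) and the matrix glycoprotein EFEMP1 (2.53, adjusted p = 0.0172) went the same way. Of these 8, exposed and control groups lay apart in opposite directions in both tissues for BMP4, TWSG1, WNT2B, HTRA1 and PLAU. Their calls were less stable than those of EDNRA and CTHRC1, with 2 of 12 fits for WNT4, 5 for BMP4 and BMP6, 6 for TWSG1 and HTRA1, 7 for WNT2B, 8 for PLAU and 11 for EFEMP1.

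Markers of other cell types were set beside these genes. The 16 endothelial markers had a median interaction of 0.72, a median liver change of 0.33 and a median gut change of -0.46, and 11 of the 16 had all nic50 guts below all control guts, against 7.57% of all genes. They summed to 39.0, 20.3 and 46.3 FPKM in nic50 guts against 54.7 to 59.1 in control guts, and to 41.1 to 67.1 in nic50 livers against 23.9 to 102 in control livers, with 0 of the 16 at 0 in every library of a group. Only LYVE1, a hyaluronan receptor of lymphatic and sinusoidal endothelium, passed (interaction 2.17, adjusted p = 0.0398, 2 of 12 fits), against 0.839% of all genes called higher. The 13 smooth muscle markers had a median interaction of -0.43, with 0 past the test, against 0.987% of all genes. None was at 0 throughout a group, and they summed to 71.7 to 130 FPKM in nic50 livers and 86.4 to 162 in control livers. In gut their mean in log2 relative to the control mean was 0.458, -0.481 and 1.518 at nic50 and -0.400, -0.008 and 0.408 in controls. The gut libraries thus overlapped, with nic50 gut 2 below all controls. Lower sums in nic50 guts were not particular to endothelium. The 15 enteroendocrine markers summed to 146 to 223 FPKM in nic50 guts against 312 to 382 in control guts. The 7 macrophage markers summed to 111 to 153 against 158 to 221. The tested members of these lists had median interactions of 0.838 and 0.725, with 0 past the test, against 0.987% of all genes. Goblet cell sums overlapped in gut, at 225 to 365 against 360 to 390. The part of such cell types in the fibroblast and matrix values was not tested.

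Of 19 tested coagulation genes 5 had a positive interaction past the threshold, FGG, FGA, TFPI, F10 and PROS1, against 0.839% of all genes, and 0 a negative one. In gut 5 of the 19 fell (0.237% of all genes), namely FGA, FGB, FGG, F10 and PROS1, and in liver 2 rose (3.2% of all genes), TFPI among them. The median interaction was 0.36. The fibrinogen chains FGA, FGB and FGG, which form the clot, are liver products.

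FGG had 0.418, 0.303 and 0.308 FPKM in nic50 guts against 5.29, 4.6 and 5.08 in control guts, and 24050, 26046 and 24375 FPKM in the nic50 livers against 24622, 22328 and 23622 in control livers. FGA had 0.158, 0.228 and 0.199 FPKM in nic50 guts against 3.04, 3.67 and 2.96 in control guts, with overlapping levels in liver. For both, nic50 and control guts lay far apart and livers overlapped. The interaction was 2.23 for FGG (SE 0.23, adjusted p = 0.000204) and 1.84 for FGA (SE 0.22, adjusted p = 0.000593), and both passed in 12 of 12 fits. FGB fell by 2.0 in gut (adjusted p = 0.044), with an interaction of 2.35 that did not pass (adjusted p = 0.0588). In nic10 guts FGG stood at 0.192, 0.314 and 0.46 FPKM and FGA at 0.393, 0.18 and 0.305, while FGB had 0.254, 4.57 and 0.169.

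The fibrinogen level in control guts was a nearly constant share of that in control livers, 0.0226% for FGA, 0.0213% for FGB and 0.0212% for FGG. At nic50 the share was 0.00134% for FGA, 0.00117% for FGB and 0.00138% for FGG. Other transcripts of hepatocytes were at trace levels in gut too. VTN averaged 0.0197 FPKM in nic50 guts and 0.439 in control guts, AHSG 0.1 and 0.395, and PLG 0.00676 and 0.248. Others of the list differed less or the other way: TAT averaged 0.0939 FPKM in nic50 guts and 0.115 in control guts, SERPINC1 0.534 and 0.673, HPD 0.818 and 0.683, and F2 0.612 and 0.193. In 9 of the 19 hepatocyte markers all nic50 guts lay below all control guts and in 1 all lay above, against 7.57% lower and 4.22% higher of all genes. APOB, which enterocytes make as well, averaged 106 FPKM in nic50 guts and 116 in control guts. Whether traces of liver RNA had a part in the fibrinogen values of the gut was not tested.

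F10 and PROS1 fell in gut as well. F10, the factor that activates prothrombin, had 2.84, 1.91 and 4.85 FPKM in nic50 guts against 8.86, 6.34 and 9.49 in control guts, and 317, 293 and 314 in nic50 livers against 232, 229 and 218 in control livers. It fell by 1.18 in gut (adjusted p = 0.0242), with an interaction of 1.62 (SE 0.29, adjusted p = 0.0128). PROS1, a cofactor of anticoagulant protein C, had 2.15, 1.89 and 2.18 FPKM in nic50 guts against 5.15, 4.86 and 5.61 in control guts (interaction 1.20, adjusted p = 0.0439), and passed in 0 of 12 fits without 1 library. TFPI, an inhibitor of clotting made by endothelium, instead rose in liver, with 40.0, 40.7 and 42.6 FPKM at nic50 against 17.8, 19.5 and 13 in controls (interaction 1.66, adjusted p = 0.0117). C9, the pore-forming complement protein, was also a liver rise, with 1195, 1148 and 1121 FPKM at nic50 against 648, 502 and 499 in controls (interaction 1.3, adjusted p = 0.0153). It was the 1 called gene of 15 in the complement list, against 0.839% of all genes called higher. After rescaling by trimmed means or quantiles 0 of the 15 passed, so C9 lost its call there.

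Signalling genes were among the liver differences with the smallest adjusted p. CISH, which is induced by growth hormone and cytokines through STAT5 in mammals, had 13.5, 13.7 and 13 FPKM in the nic50 livers against 0.851, 2.05 and 2.08 in control livers. In gut it had 0.502, 0.641 and 0.525 FPKM at nic50 against 0.835, 0.797 and 0.587 in controls. The liver groups were far apart while the gut groups overlapped, and the interaction was 2.63 (SE 0.39, adjusted p = 0.00402). CISH was the 1 called gene among 20 of the growth hormone and SOCS list, against 0.839% of all genes called higher. The median interaction of that list was 0.19.

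DIO2, the deiodinase that turns thyroxine into the active hormone, had 12.4, 11.7 and 19.7 FPKM in the nic50 livers against 1.42, 1.25 and 2.37 in control livers, and stood at 0.14 FPKM or below in every gut compared, with nic50 guts 1 and 2 listed at 0. Its interaction of 2.63 (SE 0.29, adjusted p = 0.000416) is thus nearly the liver rise of 2.53 alone. It was the 1 called gene of 11 in the thyroid hormone list, against 0.839% of all genes called higher. PDYN, the precursor of the opioid dynorphin, had 2.08, 3.36 and 2.34 FPKM in nic50 livers and was listed at 0 in all control livers, with at most 0.164 FPKM in gut (interaction 1.79, SE 0.20, adjusted p = 0.000416). DIO2 and PDYN kept their calls with the alike livers averaged (adjusted p = 0.0067 and 0.0441), where CISH did not (interaction 2.75, adjusted p = 0.173).

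PDYN stood beside other transcripts, like it chosen after their values were seen, that were near 0 in control livers. SPOCK3, a testican proteoglycan, had 1.67, 1.78 and 2.27 FPKM in the nic50 livers against at most 0.0587 in control livers (interaction 1.49, adjusted p = 0.00161). PRLH, the prolactin-releasing hormone, had 1.86, 2.75 and 1.73 FPKM against at most 0.172 (interaction 1.67, adjusted p = 0.00635), and SRD5A2, a steroid 5-alpha-reductase, 3.15, 2.3 and 3.63 FPKM against at most 0.222 (interaction 1.75, adjusted p = 0.00577). None of the 3 exceeded 0.4 FPKM in a gut at nic50 or in a control gut. All 4 were also low in nic10 livers, where PDYN reached at most 0.0279 FPKM and SRD5A2 0.839. Among the libraries compared, all 4 reached FPKM of 1 in nic50 livers only. A gene was tested if 3 or more libraries had FPKM of 1 or more, so that group brought them into the test. Neither their p-values nor the call that PDYN kept with the alike livers averaged is thus separate support.

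TRIB1, a scaffold that directs transcription factors to degradation, stood apart in both tissues. It had 25.4, 21.2 and 23.8 FPKM in the nic50 livers against 7.87, 10.4 and 9.51 in control livers, and 23.1, 24.5 and 29.0 in nic50 guts against 57.3, 64.5 and 35.7 in control guts. Groups did not overlap in either tissue, and the interaction was 2.23 (SE 0.38, adjusted p = 0.00824). TRIB1, SRGN and RARRES1 were named by a rule that asked for separation in at least 1 tissue, so separation there is no separate support. SRGN had 110, 102 and 185 FPKM in the nic50 livers against 31.0, 49.3 and 25.6 in control livers, with overlapping groups in gut (interaction 2.84, adjusted p = 0.0172). RARRES1 had 43.0, 78.7 and 76.9 FPKM in the nic50 livers against 16.2, 15.9 and 16.4 in control livers, and 3.81, 4.14 and 3.12 in nic50 guts against 8.72, 6.0 and 14.8 in control guts (interaction 3.05, SE 0.57, adjusted p = 0.0153).

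TMEM119, a membrane protein of bone-forming cells and microglia in mammals, rose in liver alone, with 6.11, 10.6 and 9.67 FPKM at nic50 against 1.38, 1.16 and 1.57 in controls (interaction 2.35, SE 0.35, adjusted p = 0.00402). FGL1, a fibrinogen-like protein secreted by hepatocytes in mammals, had an interaction of 2.34 (adjusted p = 0.0454), which held in 1 of 12 fits. NFIL3, a transcription factor of the circadian clock and of lymphoid cells, had 62.9, 51.8 and 57.1 FPKM in the nic50 livers against 11.7, 27.4 and 25.6 in control livers (interaction 1.98, adjusted p = 0.0374, 3 of 12 fits). It was the 1 called gene of 17 in the clock list, against 0.839% of all genes called higher. IFNGR1, a chain of the interferon gamma receptor, had 42.8, 44.0 and 56.0 FPKM in the nic50 livers against 23.8, 29.3 and 26.1 in control livers, and 240, 159 and 174 in nic50 guts against 294, 259 and 340 in control guts. Its groups lay apart in opposite directions (interaction 1.47, SE 0.25, adjusted p = 0.00821), as did those of LEPROT, which lowers leptin receptor at the cell surface in mammals (1.25, adjusted p = 0.0116). IFNGR1 and LEPROT were chosen after their values were seen, so their arrangement does not show how common it was.

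CD247, the zeta chain of the T cell receptor, had 10.6, 11.8 and 7.77 FPKM in nic50 guts against 28.9, 21.4 and 12.8 in control guts, and 1.8, 2.21 and 3.44 in nic50 livers against 0.804, 1.02 and 1.42 in control livers. The groups did not overlap in either tissue (interaction 1.67, adjusted p = 0.0446), but the call held in 1 of 12 fits. CD247 was the 1 called marker of 14 for T and cytotoxic lymphocytes, against 0.839% of all genes called higher. The 17 listed markers of these cells summed to 17.1 to 34.1 FPKM in the nic50 livers against 72.3 to 152 in control livers, and to 64.7 to 160 in nic50 guts against 122 to 246 in control guts; GZMA, TBX21 and KLRG1 (LOC102443722) were at 0 in all nic50 livers. The 14 tested markers had a median liver change of 0.29. In liver 5 lay apart higher and 1 lower, against 24.5% and 7.96% of all genes. In the liver test 1 of the 14 fell (0.98% of all genes) and 0 rose. A sum is led by its most abundant members, so the lower sums in nic50 livers do not show that most of these markers fell. The mean of the 14 in log2 relative to the control mean was -0.19, -0.14 and 0.32 in nic50 livers and -0.28, 0.16 and 0.11 in control livers, which overlap.

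Genes with a negative interaction were fewer, and in 18 of the 20 the liver change alone passed. LGALS3, a galectin of macrophages and epithelia, had 19.7, 15.7 and 19.2 FPKM in the nic50 livers against 66.9, 108 and 83.1 in control livers, and 151, 152 and 136 in nic50 guts against 149, 131 and 132 in control guts. The liver groups were far apart and the gut groups overlapped, with an interaction of -2.25 (SE 0.37, adjusted p = 0.0078). LGALS4, an epithelial galectin of the digestive tract, had 3.79, 7.93 and 5.21 FPKM in the nic50 livers against 71.9, 22.8 and 27.6 in control livers, and 2.49, 7.14 and 7.69 in nic50 guts against 4.12, 3.43 and 2.92 in control guts. Its interaction was -3.01 (SE 0.67, adjusted p = 0.0423), which passed in 2 of 12 fits. At the control level LGALS4 was thus higher in liver than in gut.

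RET, the receptor kinase of enteric nerve precursors, had 0.145, 0.152 and 0.0883 FPKM in the nic50 livers against 6.05, 4.74 and 3.89 in control livers, and 1.04, 0.917 and 1.14 in nic50 guts against 0.867, 1.5 and 1.26 in control guts. The liver groups were far apart and the gut groups overlapped (interaction -2.26, SE 0.37, adjusted p = 0.00653). It was the 1 called gene of 10 markers of enteric neurons and glia, against 0.148% of all genes called lower. The 17 listed markers of those cells, RET among them, summed to 9.82 to 10.4 FPKM in nic50 livers and 9.99 to 10.6 in control livers. Since RET is a large part of the control sum, the sums do not show that the other markers stayed level. In liver 1 of the 10 tested markers rose (3.2% of all genes) and 1, RET, fell (0.98% of all genes). ELAVL3, SNAP25, CHAT and NOS1 were at 0 in all 6 of these livers.

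HGFAC, a protease that activates hepatocyte growth factor, had 56.5, 57.7 and 56.3 FPKM in the nic50 livers against 168, 123 and 136 in control livers, and 2.87, 0.551 and 2.81 in nic50 guts against 0.317, 0.935 and 0.574 in control guts (interaction -2.13, SE 0.38, adjusted p = 0.0117). PRR35 had 0.363, 0.631 and 0.462 FPKM in the nic50 livers against 3.51, 4.15 and 7.02 in control livers (interaction -2.004, adjusted p = 0.00161). IDO2, which opens the ring of tryptophan, had 3.99, 5.57 and 4.02 FPKM in the nic50 livers against 16.2, 11.8 and 12.3 in control livers (interaction -1.32, adjusted p = 0.0146). PRR35 and IDO2 stayed under 0.3 FPKM in all guts compared, so both differences are liver falls.

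RTEL1, a helicase of telomere upkeep, had 2.89, 2.38 and 2.57 FPKM in the nic50 livers against 6.27, 6.14 and 7.21 in control livers, and 2.84, 3.33 and 2.9 in nic50 guts against 1.67, 2.66 and 2.71 in control guts. The interaction was -1.34 (adjusted p = 0.0423), but it passed in 0 of 12 fits without 1 library. TBATA, a gene of thymus stroma and germ cells in mammals, had 1.54, 2.59 and 3.71 FPKM in nic50 guts against 0.84, 0.123 and 0.298 in control guts, with at most 0.63 FPKM in the livers (interaction -1.57, adjusted p = 0.0398, 2 of the 9 fits that tested it). Only the nic50 guts reached FPKM of 1, so TBATA entered the test through the group where it stood high, and its p-value is no separate support.

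The largest interaction of all belonged to a feature without annotation in the tables used here, LOC102443578. In nic50 livers it had 0, 0.125 and 0.157 FPKM, against 409, 794 and 990 in control livers, and at most 0.593 FPKM in the guts compared. The interaction was -8.98 (SE 0.48, adjusted p = 3.63e-08), and it passed in every fit tried. In nic10 livers the same feature had 877, 858 and 1382 FPKM. At the other end, LOC102457509, a long non-coding RNA gene on chromosome 2 of the RefSeq assembly ASM4963464v1, had 35.0, 38.9 and 36.9 FPKM in the nic50 livers against 3.49, 0.462 and 0.552 in control livers and under 0.6 FPKM in all guts compared (interaction 4.28, SE 0.56, adjusted p = 0.00161). Both were chosen after their values were seen, and 47 of the 133 genes had no symbol.

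The series title names antioxidant defence as a subject of the study. Of 41 tested genes of this list 0 passed the interaction test, and with 0.987% of all genes called that count does not set them apart; their median interaction was 0.19, against 0.13 over all genes. Interactions were -0.09 for the superoxide dismutase SOD1 (SE 0.35), 0.43 for its mitochondrial form SOD2 (SE 0.33), 0.55 for catalase, CAT (SE 0.41), 0.70 for the glutathione peroxidase GPX1 (SE 0.32) and 0.37 for the glutathione reductase GSR (SE 0.42), with adjusted p from 0.389 to 0.956. The regulator NFE2L2 stood at 0.19 (SE 0.24), its inhibitor KEAP1 (LOC102454403) at 0.08 (SE 0.35), and the target genes HMOX1 and NQO1 at 0.86 (SE 0.43) and -0.12 (SE 0.37). CAT had 812, 893 and 856 FPKM in the nic50 livers against 704, 630 and 639 in control livers and overlapping levels in gut. With a median SE of 0.33 for an interaction, differences of the size seen for these genes could not be separated from 0.

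Mitochondrially encoded transcripts leaned the other way from most genes. Of the 13 protein genes of the mitochondrial genome 0 passed the interaction test, but 12 had an interaction below 0, with a median of -1.26, a median liver change of -0.59 and a median gut change of 0.30. The exception was ATP8 (1.59, adjusted p = 0.166), a small subunit of ATP synthase. Over all genes 8503 of 13475 interactions were above 0. The 13 genes share 1 genome and are not separate observations. Their mean in log2 relative to the control mean was -0.524, 0.425 and 0.885 in nic50 guts and -0.358, 0.131 and 0.227 in control guts. The gut libraries thus overlapped, with nic50 gut 1 below all controls. COX1, the catalytic subunit of cytochrome oxidase, had 2341, 2203 and 2792 FPKM in the nic50 livers against 18082, 13436 and 11997 in control livers, and 5657, 24762 and 18334 in nic50 guts against 12827, 17728 and 13680 in control guts. The liver groups were apart and the gut groups overlapped, and the interaction of -2.46 (SE 0.87, adjusted p = 0.225) did not pass. The fit takes 1 spread over all 6 groups, nic10 included, and the part of the guts in it was not tested. In a fit of the 12 libraries compared, 2 of the 13 genes passed. That fit called more genes in general, 255 of 12904, against 133 of 13475 in the fit of all 18 libraries. The 65 nuclear genes of the respiratory chain had a median interaction of -0.03, against 0.13 over all genes, and 14 lay above that all-gene median. After quantile normalization the medians were -0.22 for this list and -0.02 over all genes. Of the 65, 0 passed the test. With 0.987% of all genes called in the fit of all 18 libraries, a count of 0 does not set either list apart.

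A further pair of genes with large liver changes did not pass the interaction test either. SCD, the desaturase of fatty acids, had 590, 649 and 534 FPKM in the nic50 livers against 235, 101 and 89.4 in control livers, and 1919, 509 and 908 in nic50 guts against 1024, 1036 and 582 in control guts (interaction 2.02, SE 0.76, adjusted p = 0.257). The dehydrogenase gene DHRS1 had 0.493, 0 and 0.382 FPKM in the 3 exposed livers against 34.4, 158 and 155 in control livers, and 103, 560 and 487 in nic50 guts against 651, 547 and 323 in control guts (interaction -5.56, SE 1.68, adjusted p = 0.144). In both, 1 gut library at nic50 stood far from the other 2.

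Immediate early genes, the first to be transcribed after a stimulus, had a median interaction of 0.71 over 25 genes, against 0.13 over all genes. Of the 25, 0 passed the threshold, and with 0.987% of all genes called that count does not set them apart. In the fit of the 12 libraries compared 3 of the 25 passed, among 255 calls in 12904 genes. The median was 0.25 in liver and -0.39 in gut, and in 9 of the 25 all nic50 guts lay below all control guts, against 7.57% of all genes. In liver 10 of the 25 lay apart higher and 3 lower, against 24.5% and 7.96% of all genes. KLF10, a growth factor-induced repressor, rose by 2.01 in liver (adjusted p = 0.00136; interaction 1.48, adjusted p = 0.124), SIK1, a kinase induced by cyclic AMP, by 1.72 (adjusted p = 0.0319; interaction 2.23, adjusted p = 0.0944) and BTG2, an antiproliferative gene, by 0.95 (adjusted p = 0.0385; interaction 1.38, adjusted p = 0.0741). MYC had 42.6, 43.6 and 44.8 FPKM in the nic50 livers against 15.1, 28.0 and 32.3 in control livers, and 37.4, 41.9 and 35.3 in nic50 guts against 60.4, 47.9 and 54.6 in control guts (interaction 1.33, adjusted p = 0.0758). PLOD2 (LOC102445695), a collagen-modifying enzyme outside this list, rose by 2.61 in liver (adjusted p = 0.000414) with a gut change of 0.60 in the same direction (interaction 2.01, adjusted p = 0.0598).

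**Figure D4:**
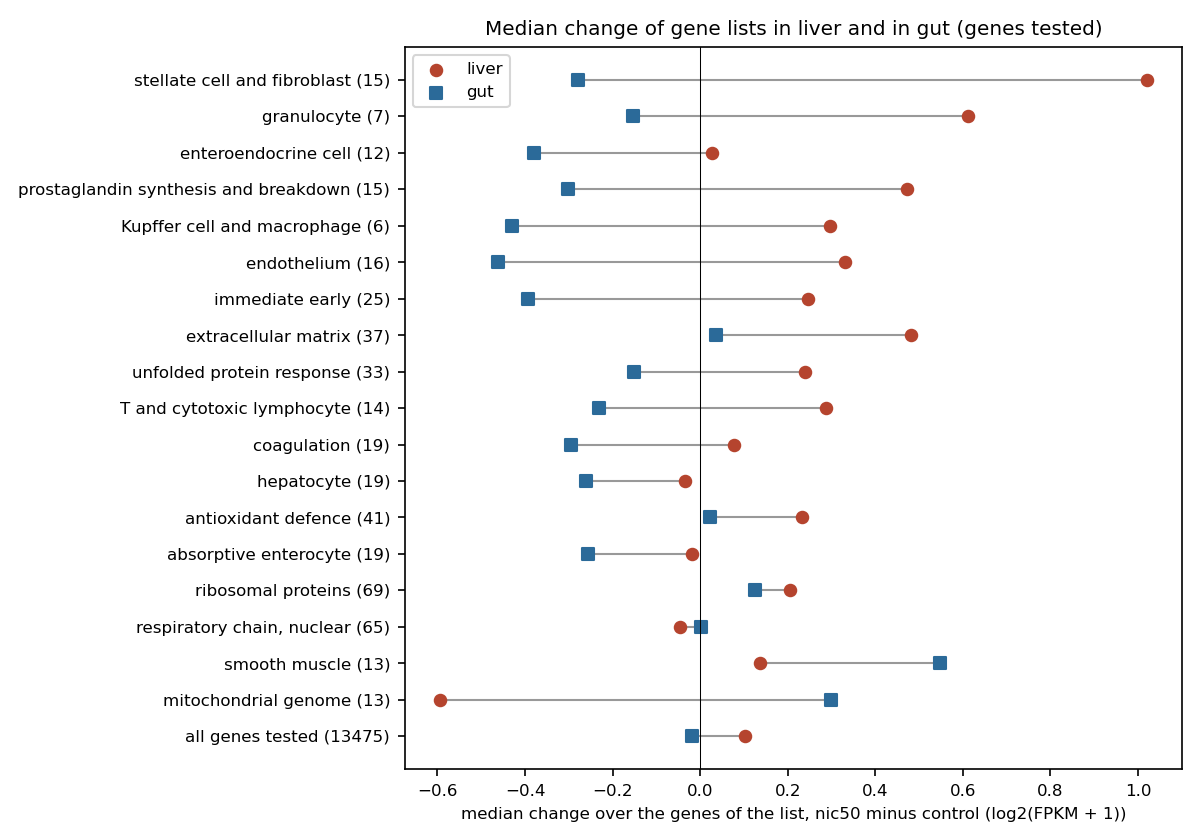
Median change over the tested genes of 18 lists and of all genes, nic50 minus control in log2(FPKM + 1), in liver (red circles) and gut (blue squares), ordered by median interaction; the number of genes tested stands in brackets. The widest gap with liver above gut among these lists is that of the stellate cell and fibroblast markers (1.02 in liver, -0.28 in gut), and the mitochondrial genome (-0.59 in liver, 0.30 in gut) and smooth muscle markers (0.14 in liver, 0.55 in gut) run the other way.

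At 10 µg per L the same controls serve, so its values are set beside those at nic50 as a description only. The interaction of CISH was 2.63 at nic50 and 0.54 at nic10, that of DIO2 2.63 and 0.20, that of PTGS2 2.48 and 0.80, and that of EDNRA 2.77 and 0.83. HPGDS stood at -2.55 and -0.22, LGALS3 at -2.25 and 0.42, and TCF21 at 1.52 and -0.25. The fibrinogen genes stood at 2.23 at nic50 and 2.57 at nic10 for FGG, 1.84 and 2.06 for FGA, and 2.35 and 1.70 for FGB, whose interaction passed at neither dose (adjusted p = 0.0588 and 0.273). TRIB1 lay between, at 2.23 and 1.63. Not all others shrank: C9 stood at 1.296 and 1.387, and HGFAC at -2.135 and -2.328 (adjusted p = 0.0118 at nic10). The HGFAC change at nic10 was 2.316 in gut and -0.012 in liver. A smaller interaction, as also for RARRES1 (1.163) and TMEM119 (1.145), did not always mean a level liver. In nic10 liver CISH rose by 1.370 (adjusted p = 0.023), RARRES1 by 2.001 (0.0223) and TMEM119 by 1.646 (0.00272). DIO2, PTGS2 and EDNRA did not pass there (0.292, 0.610 and 0.904).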

How the data were processed

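RNA from liver and gut was extracted with TRIzol and made into libraries with a VAHTS Universal V6 kit, per the labels' protocols. CASAVA is named in the submitters' processing notes; aligner, counting tool, genome build and strandedness are not given in sources used here. For 24880 features and 18 libraries the authors deposited FPKM values, scaled by them to transcript length and depth, per the file headers; no counts were used, and the commonest ratio between low values of library pairs held for only 0.234% to 0.774% of low genes, so depth is unknown. The FPKM of a library added up to 588542 to 699273 (liver) or 677583 to 753840 (gut), and 9440 to 12340 features a library had FPKM of at least 1. A value of exactly 0 can stand for a failed estimate; among 164 housekeeping genes with median FPKM of 10 or more, 1 had a 0 in some liver library and 0 had one in gut. Symbols came from the table for 13431 features and from RefSeq (ASM4963464v1) by identifier for 975, printed with the identifier. Paralogs and overlapping genes are uncertain.

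The analysis used limma 3.58.1 (R 4.3.3) on log2(FPKM + 1), with variances moderated along mean expression, in 1 fit of all 18 libraries in 6 groups, which share 1 estimate of the spread (12 residual degrees of freedom). A gene was tested if 3 or more libraries had FPKM of 1 or more; tests were two-sided, with Benjamini-Hochberg adjustment over all 13475 and a threshold of 0.05. The fit was also run on simulated data with 1 spread for each gene in all groups. The nic50 livers were more alike than that, so the simulation does not bear on calls that rest on them. Members, lists, naming rule and alternatives were chosen with earlier results of these data known. That rule takes, from called genes that have a symbol and nic50 and control libraries apart in at least 1 tissue, the 12 highest and 12 lowest interactions, up to 6 that moved in opposite and 6 in the same direction in both tissues, up to 4 called members of each list, and 16 fixed genes. Another 26 genes were added after their values were seen: PDYN, SPOCK3, PRLH, SRD5A2, WNT4, WNT2B, BMP4, TWSG1, IFNGR1, LEPROT, HTRA1, PLAU, PROS1, FGB, LTA4H, PTGES, COL3A1, DCN, NGFR, PLOD2, KLF10, SIK1, MYC, BTG2, LOC102443578 and LOC102457509. Lists are described by counts and medians and were not tested as sets.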

Additional observations from a re-analysis of the deposited data

Results flagged for a closer look

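The liver change minus the gut change at nic50 passed the test of the difference itself in 133 genes (limma, Benjamini-Hochberg adjusted p under 0.05), and each value here is that difference in log2(FPKM + 1). Genes of prostaglandin metabolism with such a difference were PTGS2 (2.48), HPGD (1.61) and HPGDS (-2.55). Genes of fibroblasts, matrix and secreted growth factors with such a difference were MGP (3.28), EDNRA (2.77), EFEMP1 (2.53), CTHRC1 (2.16), WNT2B (2.10), HTRA1 (2.06), WNT4 (1.998), PLAU (1.94), BMP4 (1.88), RBMS3 (1.66), TCF21 (1.52), RELN (1.5), SPOCK3 (1.49), TWSG1 (1.49), PDGFRA (1.32), BMP6 (1.24) and DPT (1.23). Genes of clotting and complement with such a difference were FGG (2.23), FGA (1.84), TFPI (1.66), F10 (1.62), C9 (1.296) and PROS1 (1.20). Other genes with a higher liver than gut change were RARRES1 (3.05), SRGN (2.84), CISH (2.63), DIO2 (2.63), TMEM119 (2.35), FGL1 (2.34), TRIB1 (2.23), LYVE1 (2.17), ATP1B4 (2.08), NFIL3 (1.98), PDYN (1.79), SRD5A2 (1.75), TM9SF2 (1.71), PRLH (1.67), CD247 (1.67), IFNGR1 (1.47) and LEPROT (1.25). Other genes with a lower liver than gut change with such a difference were LGALS4 (-3.01), RET (-2.26), LGALS3 (-2.25), HGFAC (-2.13), PRR35 (-2.004), TBATA (-1.57), RTEL1 (-1.34) and IDO2 (-1.32). Features without a symbol or with no protein annotation were LOC102457509 (4.28) and LOC102443578 (-8.98). PDYN, SPOCK3, PRLH, SRD5A2 and TBATA entered the test through the group where they stood high, so their calls are no separate support. The calls of RTEL1 and PROS1 were lost whenever a library of the groups compared was left out, as given above. Several other calls held in few of those fits. Groups held 3 libraries, so single libraries were not screened for outliers.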

How the results depend on the processing

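Of 861 results of the 53 named genes past the threshold under 15 to 17 other settings each, 734 kept their call, 127 lost it and 0 reversed; with 1 library left out at a time 763 of 939 kept it, 176 lost it and 0 reversed. Averaging the alike livers took 48 of the 127 losses; it leaves the nic50 livers 1 value, assumed to vary like the other groups, and 9 residual degrees of freedom. The cause of the other losses was not tested. The 133 differences became 70 with a mean FPKM of at least 5 and 68 with at least 1 in each tissue (fewer genes tested), 546 with library weights, 255 in a fit of the 12 libraries compared and 5 with alike livers averaged, and ran from 36 to 175 with 1 library left out. Higher and lower calls split 71 and 24 after rescaling within each tissue. Among genes detected in both tissues the 76 became 338, 174 and 2 with library weights, 12 libraries and averaged livers, and 19 to 108 with 1 library left out.

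The 563 liver changes became 4141 with library weights, 295 at a log2 change of at least 1, 12 with averaged livers and 271 with a covariate for the 22-gene set, and 127 to 751 with 1 library left out. The 41 gut changes became 20 and 24 with pseudocounts of 0.1 and 0.5, 11 with a mean FPKM of at least 5, 7 with at least 1 in each tissue, 16 and 11 after rescaling by trimmed means and by quantiles, 12 with averaged livers, 23 with the covariate, and 10 to 114 with 1 library left out. The labels do not pair the libraries, and deviations of same-numbered libraries correlated at -0.29 to 0.26; with a replicate block within tissues 104 interactions passed and with a replicate block across both tissues 115, and the gut count was 17 and 27. Depth is unknown, so low values carry no counting error here.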
